A study of Homo sapiens with 6 samples.

Results

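Adherens junctions and desmosomes are the adhesive contacts that hold epithelial cells to each other, and 10 of their genes were followed here in SNU216 cells. They were taken by gene symbol from the 17318 genes listed in every library. Of these, 4 encode transmembrane cadherins (CDH1, CDH3, DSG2 and DSC2) and 6 encode cytosolic plaque proteins (DSP, JUP, PKP2, PKP3, CTNNA1 and CTNNB1). SNU216 is an established human gastric cancer cell line, used here as 1 line. In the siOXTR group (3 libraries) an siRNA directed at the oxytocin receptor gene OXTR had acted for 48 h, and in the siControl group (3 libraries) a control siRNA for the same time. All cells were grown in RPMI1640 with fetal bovine serum and antibiotics. No label ties the libraries to separate cultures, and the p-values below therefore cover the spread among libraries alone, possibly a technical one.

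In an adherens junction the extracellular parts of classical cadherins on neighbouring cells bind each other, while their cytoplasmic tails hold an armadillo-repeat protein, beta-catenin or plakoglobin, to which alpha-catenin attaches and makes the link to actin. In a desmosome, desmogleins and desmocollins take the place of classical cadherins, plakoglobin and plakophilins bind their tails, and desmoplakin ties the plaque to keratin filaments. E-cadherin, the product of CDH1, is a tumour suppressor in the stomach, where inherited loss of it causes diffuse gastric cancer. Beta-catenin has a second role as the transcriptional effector of Wnt signalling, outside the junction.

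Levels are in FPKM (fragments counted per kilobase of transcript, relative to the library total), a unit per length in which different genes can be set side by side. All 10 genes passed the filter of a mean of at least 1 FPKM, as did 11550 genes in all, and each was tested on log2(FPKM + 1) with limma across all tested genes. FPKM summed to between 446246 and 459595 per siOXTR library and to between 417829 and 434167 per siControl library, and sequencing depth is unknown. Over the tested genes the log2 fold change had a median of 0.13 with the deposited values and of 0.013 once libraries were scaled by the trimmed mean of M-values (TMM), which moved the typical gene by -0.119. Libraries correlated at a Pearson r of 0.995 to 0.998 within groups and 0.974 to 0.976 between groups, over tested genes. OXTR itself was at 4.92 ± 0.371 FPKM in siOXTR and 39.1 ± 0.257 FPKM in siControl (SD, n = 3 each). All 6 epithelial markers looked up (EPCAM, KRT8, KRT18, KRT19, CLDN4 and ELF3) were present, with a summed level of 8180 to 8339 FPKM in siOXTR and 7055 to 8144 FPKM in siControl, most of it from the 3 keratins. Of the 6, EPCAM and CLDN4 fell under all 3 scalings (as deposited, after TMM and with equal library sums). CLDN4 was at 338.82, 346.36 and 351.53 FPKM in siOXTR, against 445.89, 466.56 and 466.72 FPKM in siControl. KRT19 and ELF3 were called higher as deposited (log2 fold change 0.27 each) and with equal library sums, but not after TMM scaling. KRT8 and KRT18 were called under none of these scalings. As deposited, 17.6% of all tested genes were called lower and 42.2% higher. The 5 fibroblast markers in the files averaged under 1 FPKM each and summed to between 0.61 and 0.81 FPKM in siOXTR and between 1.62 and 2.02 FPKM in siControl. The 6 blood and endothelial markers in the files summed to between 8.75 and 9.49 FPKM in siOXTR and between 9.73 and 11.1 FPKM in siControl, of which 5 averaged under 1 FPKM and CD68 made up most, and no marker of either list was at 0 in all libraries. The part of other cells in the results below was not tested. In RNA of a whole culture, fewer cells with a transcript and less of it per cell cannot be told apart.

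All 4 cadherin genes fell in siOXTR and the 6 plaque genes moved little and in different directions. At an adjusted p under 0.05 (limma, Benjamini-Hochberg over all tested genes), 9 of the 10 genes changed, against 59.8% of all tested genes. Of the 10, 6 fell, against 17.6% of tested genes, and 3 rose, against 42.2%. A log2 fold change of -1 or lower was found for CDH1, CDH3 and DSG2, and for 2.34% of tested genes. The FPKM of the 2 groups did not overlap in 9 of the 10 genes, with JUP as the exception, against 64.4% of tested genes. The median log2 fold change was -1.62 over the 4 cadherin genes and 0.14 over the 6 plaque genes, beside 0.13 for all tested genes. After TMM scaling these medians were -1.75 for the cadherin genes and 0.016 for the plaque genes, 6 members were called lower (24.5% of tested genes) and 0 higher (19.1%). With every library scaled to the same sum 1 member was called higher, against 25.6% of tested genes.

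**Figure D1:**
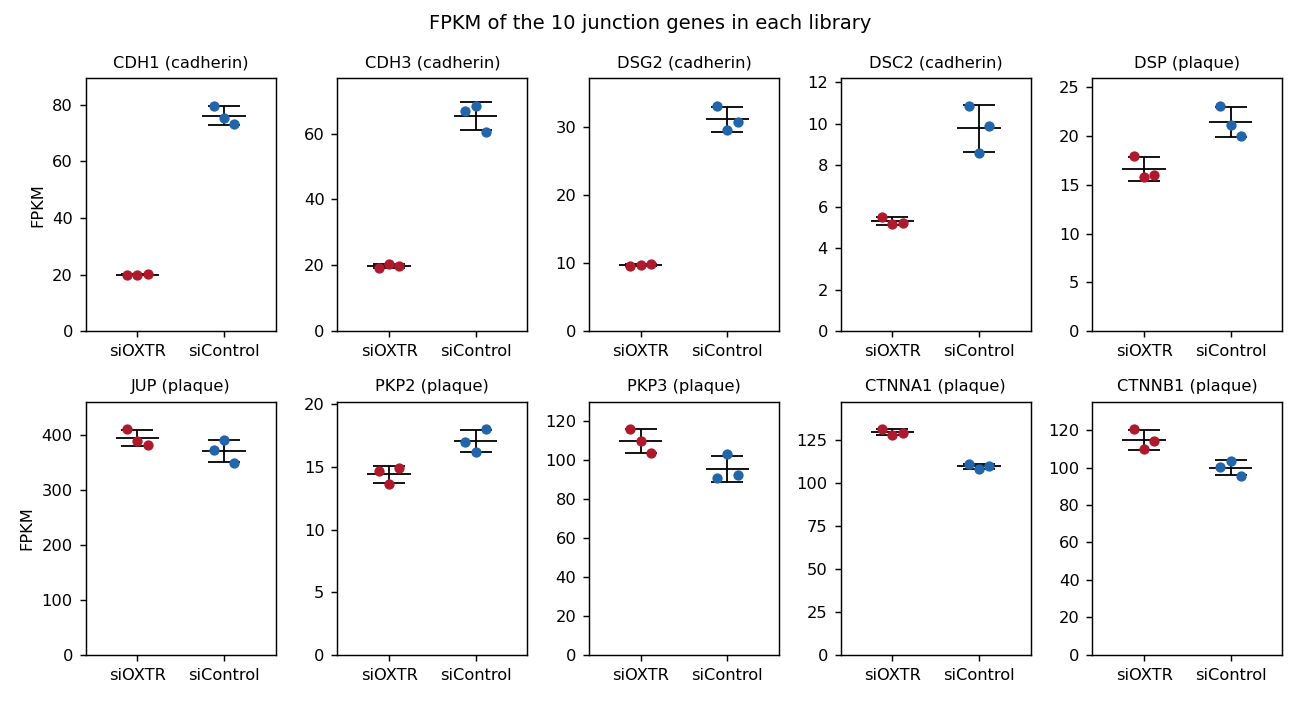
FPKM of each junction gene (vertical axes, each from 0) in the 3 siOXTR libraries (red) and the 3 siControl libraries (blue), 1 point per library, with the mean and SD as lines. The 4 cadherin genes sit well below siControl in all 3 siOXTR libraries (CDH1 at 19.80 to 20.27 FPKM, against 73.32 to 79.70 FPKM), whereas JUP overlaps between the groups and the other plaque genes lie close to siControl.

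CDH1, the gene of E-cadherin, lies on chromosome 16 from 68737225 to 68835548 (GRCh38, plus strand). It was at 19.80, 19.93 and 20.27 FPKM in the siOXTR libraries, against 79.70, 75.21 and 73.32 FPKM in the siControl libraries. Each siOXTR library was thus far below the lowest siControl library, and the siOXTR libraries differed among themselves by less than 1 FPKM. Its log2 fold change was -1.88 (SE 0.052, adjusted p = 1.52e-10, limma), a 3.80-fold lower mean, and 12 of the 11550 tested genes fell further.

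CDH3 encodes P-cadherin, the classical cadherin named for placenta, which many carcinomas make beside E-cadherin. It lies next to CDH1 on the same strand of chromosome 16, from 68636189 to 68722616, 14.6 kb from it. It was at 19.15, 20.55 and 19.88 FPKM in siOXTR, against 67.00, 68.54 and 60.63 FPKM in siControl. The groups were again far apart, with log2 fold change -1.67 (SE 0.060, adjusted p = 7.42e-10, limma) and a 3.29-fold lower mean. In siOXTR the ranges of CDH1 and CDH3 overlapped, so their levels did not differ beyond the spread, whereas in siControl every library held more CDH1 than any held CDH3.

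The desmosomal cadherins were lower in level than the classical pair. DSG2, the gene of desmoglein 2, which is the desmoglein of simple epithelia, lies on chromosome 18 from 31498043 to 31549008 (plus strand). It was at 9.63, 9.79 and 9.93 FPKM in siOXTR, against 33.22, 29.56 and 30.76 FPKM in siControl. The log2 fold change, -1.58 (SE 0.059, adjusted p = 9.04e-10, limma), was close to that of CDH3. DSC2, the gene of its partner desmocollin 2, lies on the minus strand of the same chromosome from 31058840 to 31102522, 395.5 kb from DSG2. It was at 5.51, 5.15 and 5.20 FPKM in siOXTR, against 10.87, 8.60 and 9.87 FPKM in siControl. It had the smallest fall of the 4 cadherin genes, 1.85-fold, and the widest spread in siControl for its level (log2 fold change -0.77, SE 0.078, adjusted p = 5.77e-06, limma). On the log2(FPKM + 1) scale the change of a gene at this level is understated, and with a pseudocount of 0.1 its log2 fold change was -0.87.

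The sequence upstream of the start site is shown for 3 junction genes that fell, DSG2, DSC2 and DSP, and for CTNNB1, which did not fall. Each is the 250 bases before the RefSeq start (GRCh38.p14), on the gene's own strand. Capitals mark the E-box CACCTG or its reverse complement CAGGTG, the site through which repressors of the SNAI and ZEB families are known to act on CDH1.
DSG2, chr18:31497927-31498176, plus strand: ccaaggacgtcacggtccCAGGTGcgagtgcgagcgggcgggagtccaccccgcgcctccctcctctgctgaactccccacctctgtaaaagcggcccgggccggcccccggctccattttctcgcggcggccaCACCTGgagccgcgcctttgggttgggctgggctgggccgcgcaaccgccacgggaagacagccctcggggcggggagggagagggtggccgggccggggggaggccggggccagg
DSC2, chr18:31102422-31102671, minus strand: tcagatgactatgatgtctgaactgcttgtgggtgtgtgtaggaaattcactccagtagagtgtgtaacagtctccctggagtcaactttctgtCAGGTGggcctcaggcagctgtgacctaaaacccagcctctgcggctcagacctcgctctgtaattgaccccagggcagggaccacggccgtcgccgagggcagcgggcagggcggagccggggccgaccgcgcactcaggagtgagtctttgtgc
DSP, chr6:7541421-7541670, plus strand: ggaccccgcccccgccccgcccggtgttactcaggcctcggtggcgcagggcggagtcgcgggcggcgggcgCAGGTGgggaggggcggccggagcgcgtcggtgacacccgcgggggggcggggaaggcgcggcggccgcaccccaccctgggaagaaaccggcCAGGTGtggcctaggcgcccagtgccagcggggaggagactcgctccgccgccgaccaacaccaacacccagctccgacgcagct
CTNNB1, chr3:41199255-41199504, plus strand: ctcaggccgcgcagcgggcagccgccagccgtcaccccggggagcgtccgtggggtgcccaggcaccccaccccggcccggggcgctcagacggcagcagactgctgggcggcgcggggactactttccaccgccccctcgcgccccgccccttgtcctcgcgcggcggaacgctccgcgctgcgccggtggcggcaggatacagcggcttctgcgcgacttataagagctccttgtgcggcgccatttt

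Upstream sequences were matched for 6 of the 10 genes, DSG2, DSC2, DSP, JUP, CTNNA1 and CTNNB1. None was matched for CDH1 and CDH3, which fell most of the 10, for PKP2, which also fell, or for PKP3. The E-box could therefore not be looked for in these genes. The E-box occurred 2 times in DSG2, starting at positions -232 and -116 (the base before the start site is -1), 1 time in DSC2 at -156, and 2 times in DSP at -178 and -85. It was not found in the windows of JUP, CTNNA1 and CTNNB1. The windows of CTNNA1 (chr5:138753175-138753424) and CTNNB1 lie wholly inside the gene spans given below, not before them. Those of DSG2, DSC2, DSP and JUP lie partly before the spans given for their genes and partly inside them. The E-boxes at -116 in DSG2 and at -85 in DSP are in the parts inside. Sequence before other start sites of these genes was not searched. The same 250-base window held it in 17.5% of 35116 RefSeq promoters. The TEAD core GGAATG, searched with its reverse complement CATTCC, was in none of the 6 windows and in 11.9% of all. The GC box GGGCGG, with its reverse complement CCGCCC, was in all 6 windows, from 1 match in DSC2 to 9 in CTNNA1, and in 42.6% of all promoters. These 6 windows were 59.6% to 80.0% G or C, against a median of 58.0% over all promoters, and the shares were not matched for this. The CCAAT box, searched as CCAAT and ATTGG, was found 1 time, in JUP, and in 32.0% of all promoters. No marked E-box shared bases with a match of another motif. The windows are short and a match is a description of the letters, not evidence of binding.

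Of the catenins, the genes of beta-catenin and alpha-catenin were slightly higher in siOXTR. CTNNB1, on chromosome 3 from 41194741 to 41260096, was at 120.44, 109.68 and 114.04 FPKM in siOXTR, against 100.34, 103.50 and 95.65 FPKM in siControl. The groups did not overlap, and the log2 fold change was 0.20 (SE 0.055, adjusted p = 0.00860, limma). CTNNA1, the gene of alpha-E-catenin, on chromosome 5 from 138610967 to 138935034, was at 131.43, 128.10 and 129.32 FPKM in siOXTR, against 111.28, 108.41 and 109.79 FPKM in siControl. This was the tightest of the plaque genes, and its log2 fold change was 0.24 (SE 0.048, adjusted p = 0.00124, limma). Whether changes of this size passed the threshold depended on library scaling. After TMM scaling neither passed the threshold, with log2 fold changes of 0.071 for CTNNB1 (adjusted p = 0.321, limma) and 0.11 for CTNNA1 (adjusted p = 0.0915, limma). With every library scaled to the same sum, CTNNA1 was still called higher and CTNNB1 was not. Over 14 alternative settings the adjusted p (limma) ranged between 0.00487 and 0.321 for CTNNB1 and between 0.000707 and 0.0915 for CTNNA1.

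JUP encodes plakoglobin, the armadillo protein that serves both kinds of junction, and was the most abundant of the 10 in every library. It lies on chromosome 17 from 41754604 to 41786931. It was at 410.88, 389.70 and 382.85 FPKM in siOXTR, against 373.45, 390.70 and 349.41 FPKM in siControl. The groups overlapped, and no difference was called (log2 fold change 0.09, 95% interval -0.04 to 0.22, adjusted p = 0.209, limma). After TMM scaling its log2 fold change was -0.04 (adjusted p = 0.617, limma), so its direction depended on scaling, and over the alternative settings its adjusted p (limma) was 0.106 to 0.977.

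The plakophilins, which bind desmosomal cadherins and desmoplakin and gather them into the plaque, moved in opposite directions as deposited. PKP2, on chromosome 12 from 32790745 to 32896840, was at 14.66, 13.66 and 14.92 FPKM in siOXTR, against 16.98, 16.20 and 18.01 FPKM in siControl. PKP3, on chromosome 11 from 392614 to 404908, was at 115.80, 109.82 and 103.71 FPKM in siOXTR, against 90.72, 102.94 and 92.52 FPKM in siControl. The groups were apart for both genes, though for PKP3 by less than 1 FPKM. PKP2 fell (log2 fold change -0.23, SE 0.061, adjusted p = 0.00691, limma) and PKP3 rose (0.20, SE 0.063, adjusted p = 0.0152, limma). The rise of PKP3 was lost after TMM scaling (0.074, adjusted p = 0.364, limma), with equal library sums (0.12, adjusted p = 0.130, limma), without siOXTR replicate 1 (0.16, adjusted p = 0.0648, limma) and without siControl replicate 1 (0.17, adjusted p = 0.0609, limma), and its lowest adjusted p over the alternatives was 0.00521.

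DSP, the gene of desmoplakin, had the largest change of the plaque genes. It lies on chromosome 6 from 7541575 to 7586717. It was at 17.98, 15.78 and 16.03 FPKM in siOXTR, against 23.10, 21.15 and 20.03 FPKM in siControl. The siOXTR libraries were all lower, by 1.29-fold in the mean (log2 fold change -0.35, SE 0.069, adjusted p = 0.00105, limma). DSP and PKP2 remained lower after TMM scaling, with log2 fold changes of -0.47 and -0.35, and the 4 cadherin genes were then at -2.00 (CDH1), -1.79 (CDH3), -1.70 (DSG2) and -0.89 (DSC2).

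**Figure D2:**
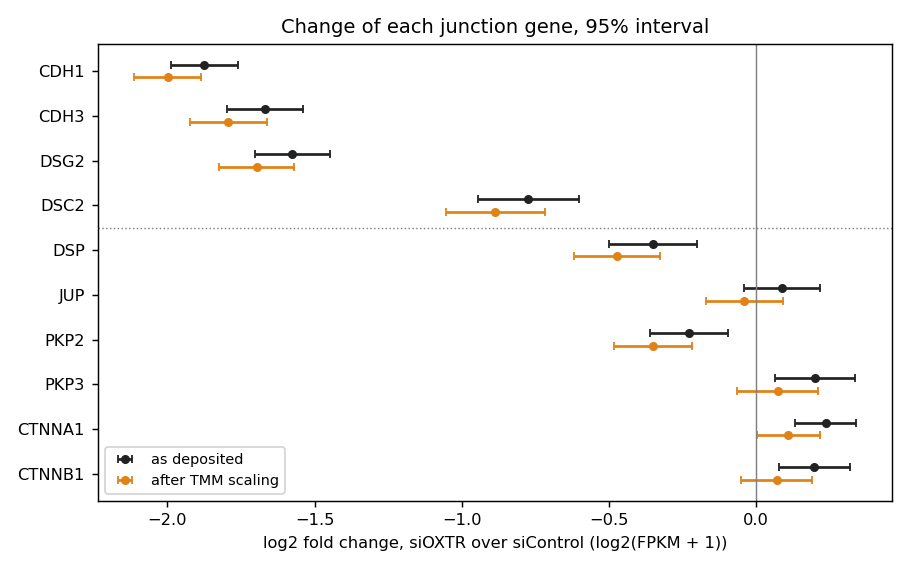
Log2 fold change of each gene, siOXTR over siControl, with its 95% interval from limma, as deposited (black) and after TMM scaling (orange); the dotted line separates cadherin genes (above) from plaque genes. All 4 cadherin genes lie at -0.77 or lower in either scaling, and the intervals of JUP, PKP3 and CTNNB1 reach 0 after TMM scaling.

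Levels of the 10 genes kept much of their order. In both groups JUP was highest, followed by CTNNA1, CTNNB1 and PKP3, then CDH1 and CDH3, and DSC2 was lowest. CTNNB1 and PKP3 overlapped in range in both groups and were not separable. DSG2, at 31.2 ± 1.87 FPKM in siControl, stood above DSP and PKP2 there, whereas at 9.78 ± 0.150 FPKM in siOXTR it stood below both (SD, n = 3 each).

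Ratios between genes of the same library do not depend on how the library was scaled. The 4 cadherin genes together held 54.09 to 55.42 FPKM in siOXTR, against 174.58 to 190.79 FPKM in siControl, and the 6 plaque genes 760.87 to 811.19 FPKM in siOXTR, against 685.41 to 742.90 FPKM in siControl. Cadherin genes thus made up 6.59 ± 0.293% of the FPKM of the 10 genes in siOXTR and 20.3 ± 0.687% in siControl (SD, n = 3 each). Plaque over cadherin FPKM was 14.2 ± 0.692 in siOXTR and 3.92 ± 0.166 in siControl. The armadillo genes that bind classical cadherin tails, CTNNB1 and JUP, held 12.8 ± 0.742 times the FPKM of CDH1 and CDH3 in siOXTR and 3.33 ± 0.104 times in siControl. On the log2(FPKM + 1) scale the mean of the cadherin genes minus the mean of the plaque genes was -2.52 ± 0.060 in siOXTR and -1.02 ± 0.071 in siControl. The difference between the groups was -1.50. Unlike a plain ratio it depends slightly on scaling, because of the added 1, and was -1.49 after TMM scaling. It is given without a test because the genes were chosen with earlier results known.

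Within-library ratios were taken for 7 pairs of these genes. The groups did not overlap in any of the 7, against 55.5% of all pairs of tested genes with values above 0 in every library. CDH1 over CTNNB1 was 0.164, 0.182 and 0.178 in siOXTR, against 0.794, 0.727 and 0.767 in siControl, and CDH1 over CTNNA1 was 0.154 ± 0.00323 in siOXTR and 0.693 ± 0.0242 in siControl (SD, n = 3 each). DSG2 over DSP was 0.592 ± 0.0487 in siOXTR and 1.46 ± 0.0710 in siControl, so desmoglein transcripts stood below desmoplakin transcripts in siOXTR and above them in siControl. DSG2 over DSC2 was 1.85 ± 0.0911 in siOXTR and 3.20 ± 0.205 in siControl. The mean of DSG2 fell by 68.6% and that of DSC2 fell by 45.9%. CDH1 over CDH3 was 1.01 ± 0.0337 in siOXTR and 1.17 ± 0.0598 in siControl. Among plaque genes, JUP over CTNNB1 was 3.44 ± 0.101 in siOXTR and 3.72 ± 0.0611 in siControl, and PKP2 over PKP3 was 0.132 ± 0.0107 in siOXTR and 0.180 ± 0.0197 in siControl. No p is read from these ratios, because a two-sided exact permutation test of 3 libraries against 3 cannot go below 0.1, which any pair without overlap reaches.

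**Figure D3:**
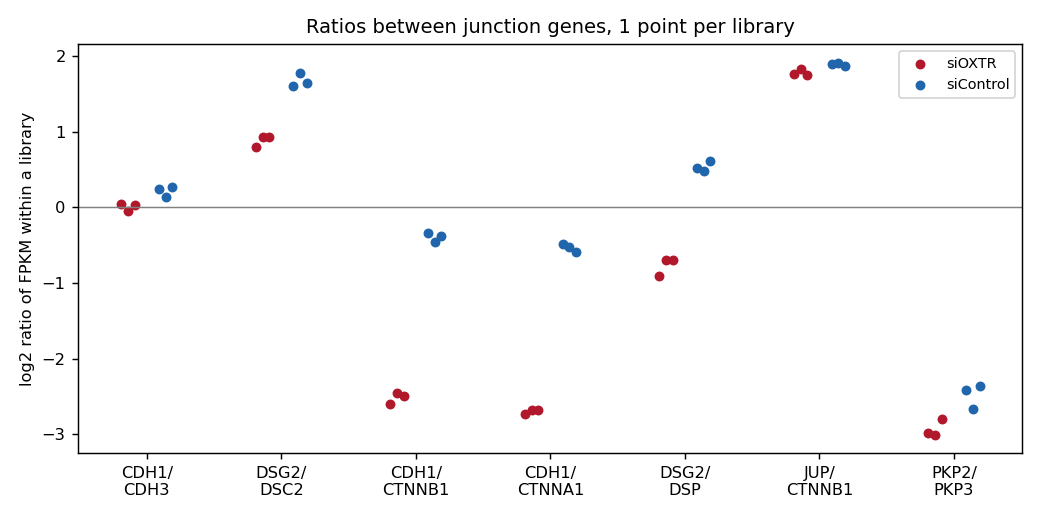
Log2 ratio of the FPKM of 2 junction genes within a library (vertical axis) for 7 pairs, with 1 point per siOXTR library (red, left) and per siControl library (blue, right). The groups are apart in every pair, most in CDH1 over CTNNA1 and CDH1 over CTNNB1 (differences of -2.17 and -2.13 on the log2 scale) and least in JUP over CTNNB1 (-0.11).

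Among all tested genes the cadherin genes lay in the lower tail and most plaque genes in the bulk. CDH1, CDH3 and DSG2 held places 13, 28 and 37 from the largest fall, and DSC2 place 511. DSP and PKP2 lay in the lowest 11.5% and 15.1% of tested genes, JUP at 43.4%, and CTNNB1, PKP3 and CTNNA1 at 63.0%, 63.6% and 70.4%.

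**Figure D4:**
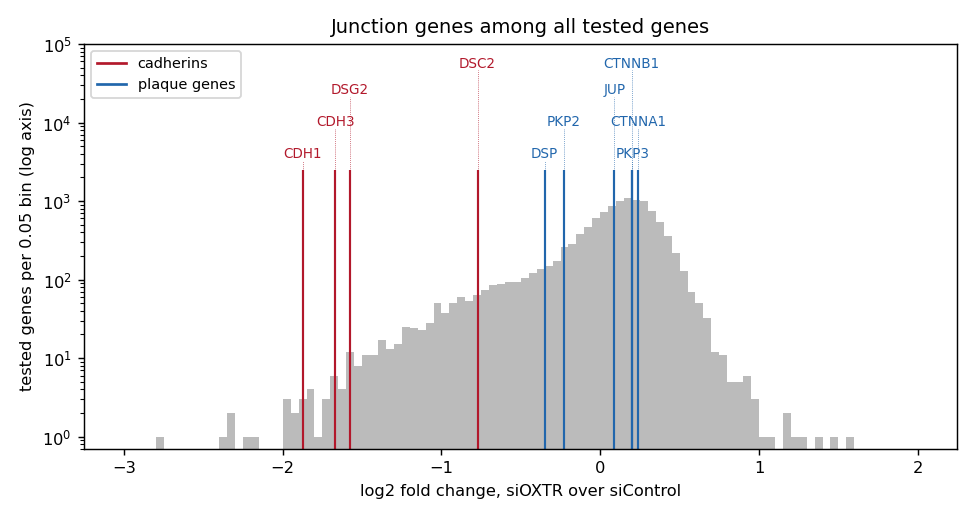
Number of tested genes (vertical log axis) by log2 fold change, siOXTR over siControl, in bins of 0.05 (grey), with the cadherin genes (red) and the plaque genes (blue) marked. CDH1, CDH3 and DSG2 lie in the thin lower tail, and JUP, PKP3, CTNNA1 and CTNNB1 lie in the main peak around the median of 0.13.

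Each protein was also translated from the main coding transcript that GENCODE release 29 gives for its gene. A window of 19 residues past the first 35 with a mean Kyte-Doolittle hydropathy of 1.6 or more was taken as a possible membrane segment. Each cadherin had such a segment, with a maximum between 3.13 and 3.40. The segment left 151 residues after it in E-cadherin, 152 in P-cadherin, 186 in desmocollin 2 and 485 in desmoglein 2, the cytoplasmic tails that plaque proteins bind. Of the plaque proteins, PKP3 also passed, at 2.02, although it is a cytosolic armadillo protein, and the other 5 stayed at 1.46 or lower. Genes on the opposite strand overlap exons of CDH1, CDH3, DSG2 and CTNNA1 in that annotation, and whether counting used strand is not given in the sources used here, so a share of reads from them cannot be told apart. Of these only LRRTM2, opposite CTNNA1, is listed in the files, at 0.04 FPKM or less.

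A single further gene of these families reached the level of the desmosomal cadherins. Of 19 other classical and desmosomal cadherin genes looked up, 17 were in the files and 1, CDH24, passed the filter. CDH24, a classical cadherin, fell to 12.5 ± 0.612 FPKM in siOXTR, against 15.1 ± 0.709 FPKM in siControl (log2 fold change -0.26, SE 0.061, adjusted p = 0.00354, limma). CDH2, the gene of N-cadherin, which often replaces E-cadherin in mesenchymal cells, was at 0.02 to 0.06 FPKM in siOXTR and 0.06 FPKM in each siControl library. CDH17, an intestinal cadherin gene, stayed at 0.14 FPKM or less in all libraries, and DSG3 and DSC3, of stratified epithelia, at 0.22 FPKM or less.

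Other adhesion receptors of these junctions also fell. Of 7 looked up (nectins 1 to 4, PVR, PERP and EPCAM), 5 were tested and all 5 fell, beside 17.6% of all tested genes called lower, with a median log2 fold change of -0.61. EPCAM, an epithelial adhesion protein, fell to 145 ± 7.78 FPKM in siOXTR, against 291 ± 17.2 FPKM in siControl (log2 fold change -0.997, adjusted p = 5.53e-08, limma). NECTIN2 and NECTIN4, immunoglobulin-like receptors of adherens junctions, had log2 fold changes of -0.81 and -0.50, and PVR, a relative that binds nectins, one of -0.61. Proteases known to shed cadherins or to process them and their shed stubs also fell, in 8 of 8 tested cases out of 9 looked up (median -0.83), beside the same 17.6%. Among them ADAM10, the main sheddase of E-cadherin, fell to 36.5 ± 0.731 FPKM in siOXTR, against 97.8 ± 5.90 FPKM in siControl (log2 fold change -1.40, adjusted p = 1.50e-09, limma). MMP14, FURIN, which cleaves cadherin precursors, and NCSTN, a gamma-secretase subunit, fell by 1.51, 0.88 and 1.09 on the log2 scale. All of these calls held after TMM scaling, where 24.5% of all tested genes were called lower.

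Other cytosolic partners were mixed. Of 16 tested catenins, plakophilins, plakins and actin linkers (20 looked up), 5 fell, 2 rose and 9 did not pass, with a median log2 fold change of 0.029. Among all tested genes 17.6% fell, 42.2% rose and 59.8% were called in either direction. After TMM scaling 6 of the 16 were lower and none higher, beside 24.5% and 19.1% of all tested genes. VCL, the gene of vinculin, which binds stretched alpha-catenin, fell to 46.0 ± 1.74 FPKM in siOXTR, against 73.6 ± 6.46 FPKM in siControl (log2 fold change -0.67, adjusted p = 4.13e-06, limma). PLEC (plectin) and ZYX (zyxin) had log2 fold changes of -0.41 and -0.32, both past the threshold, and ARVCF, a relative of p120-catenin, rose by 0.25 as deposited but was not called after TMM scaling. CTNND1, the gene of p120-catenin, which holds classical cadherins at the surface, was at 175 ± 1.78 FPKM in siOXTR and 161 ± 9.77 FPKM in siControl and did not pass (log2 fold change 0.12, adjusted p = 0.0900, limma). Of 11 genes of cadherin trafficking and turnover 9 rose and none fell, beside 42.2% of all tested genes called higher, and their median log2 fold change was 0.18, beside 0.13 for all tested genes. EXOC4, GOLGA1 and ARL1, 3 of the 11, were still higher after TMM scaling, beside 19.1% of tested genes. CBLL1, the ubiquitin ligase gene known as Hakai, was at 11.8 ± 0.208 FPKM in siOXTR and 10.5 ± 0.530 FPKM in siControl (log2 fold change 0.16, adjusted p = 0.0360, limma), and after TMM scaling it was not called.

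**Figure D5:**
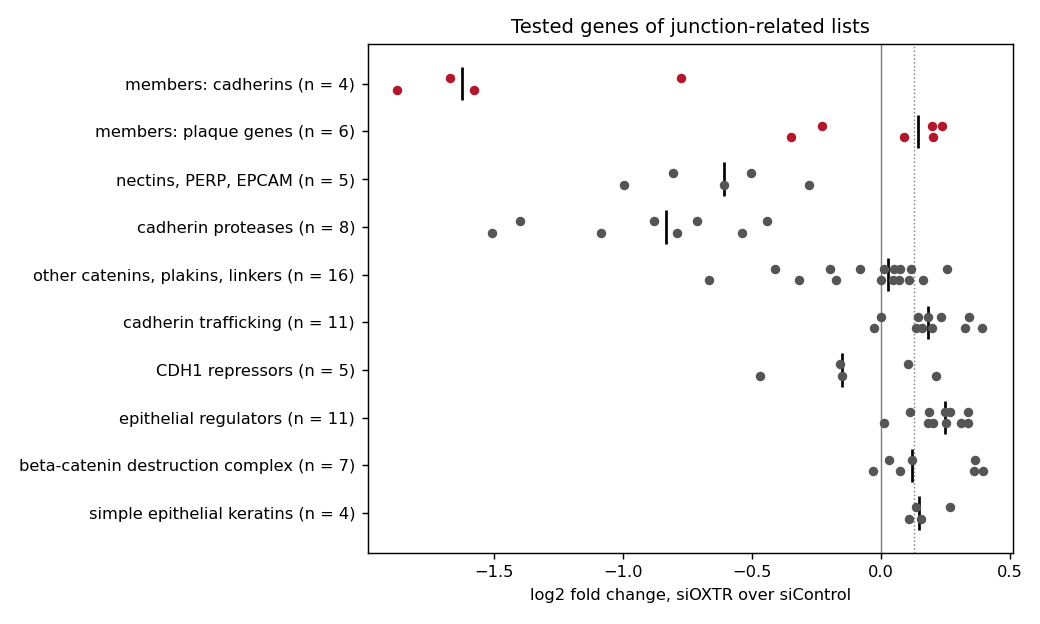
Log2 fold change, siOXTR over siControl, of every tested gene in the 2 member classes (red) and in 8 related lists (grey), 1 point per gene, with the median of each list as a black bar and the median of all tested genes as a dotted line at 0.13. The cadherin, adhesion receptor and protease lists lie below 0 throughout, and most genes of the other lists lie around the median of all genes, with VCL (-0.67) and TCF3 (-0.47) among those below it.

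Repressors of CDH1 and epithelial transcription and splicing factors are given next. Of 10 repressors and corepressors of CDH1 looked up, 5 were tested, of which 1 fell (TCF3) and 1 rose (CTBP1, log2 fold change 0.21). Among all tested genes 17.6% fell and 42.2% rose. The rise of CTBP1 was lost after TMM scaling and with equal library sums. After TMM scaling 2 of the 5 were lower and 0 higher, beside 24.5% and 19.1% of all tested genes. SNAI1, ZEB1 and ZEB2, of the families known to act on CDH1 through such an E-box, were at 0.54 FPKM or less in every library and were not tested. ZEB2 was at 0.46, 0.51 and 0.54 FPKM in siOXTR, against 0.35, 0.43 and 0.40 FPKM in siControl. KLF8, another repressor under the filter, was at 0.31 to 0.34 FPKM in siOXTR and 0.24 to 0.30 FPKM in siControl. The groups did not overlap in ZEB2 and KLF8, beside 64.4% of tested genes without overlap. SNAI1 and ZEB1 overlapped between the groups. SNAI2 was at 2.74, 3.09 and 3.65 FPKM in siOXTR, against 3.33, 3.50 and 4.10 FPKM in siControl, and the groups overlapped (log2 fold change -0.16, adjusted p = 0.150, limma), though after TMM scaling it was called lower. TCF3, which encodes the E-box binding proteins E12 and E47, had a 1.40-fold lower mean in siOXTR than in siControl (log2 fold change -0.47, adjusted p = 0.000534, limma). Of 11 tested epithelial transcription and splicing factors 8 rose and none fell (median 0.25), beside 42.2% of all tested genes called higher, led by ESRP1, a splicing factor of epithelial cells, at 141 ± 1.70 FPKM in siOXTR and 111 ± 3.53 FPKM in siControl (log2 fold change 0.34, adjusted p = 0.000132, limma). ESRP1, OVOL2 and KLF4, 3 of the 11, were called higher after TMM scaling, beside 19.1% of all tested genes.

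The genes that mark beta-catenin for degradation are given because CTNNB1 is also a Wnt effector. Of 7 tested members of the destruction complex and its partners 3 were called higher and none lower, both as deposited and after TMM scaling, beside 42.2% and 19.1% of all tested genes called higher. The count as deposited is thus near that of all genes. These were the kinase gene CSNK1A1 (log2 fold change 0.40, adjusted p = 3.87e-05, limma), the ubiquitin ligase adaptor gene BTRC (0.36) and CTNNBIP1 (0.36), an inhibitor of the binding of beta-catenin to TCF factors. APC, AXIN1 and GSK3B, the scaffold and kinase genes of the complex, were at log2 fold changes of 0.03, -0.03 and 0.12, none of them past the threshold. Keratins 8, 18 and 19, the filaments that desmoplakin anchors in simple epithelia, had log2 fold changes of 0.14, 0.15 and 0.27, of which KRT19 passed the threshold as deposited and none did after TMM scaling.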

How the data were processed

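The 6 RNA libraries of SNU216 cells, 3 siOXTR and 3 siControl, were prepared by a BGISEQ-500 protocol from Trizol lysates, per the labels' protocols. Each gene has 1 FPKM value per library, deposited by the authors to 2 decimals, per the file headers. The submitters' processing notes name GRCh38.p13 as the build, while aligner, quantifier, annotation and strand setting are not stated in the labels or headers. Low FPKM were searched for steps of whole fragments with GENCODE release 29 lengths. The best coherence was 0.119 to 0.138 of a possible 1 and the step differed between libraries, so no depth was taken and no count model was used.

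For testing, limma 3.58.1 (R 4.3.3) was fitted to log2(FPKM + 1) with group as its term (two-sided; robust prior with a mean trend) on genes averaging 1 FPKM or more, with Benjamini-Hochberg adjustment over all of them and a threshold of 0.05. The code was checked on simulated data. Folds are ratios of mean FPKM and ± is the SD of 3 libraries. TMM scaling was computed without weights, trimming 30% of ratios and 5% of levels at each end. Alternatives were TMM scaling, equal library sums, pseudocounts of 0.1 and 5, no filter, a mean of at least 5 FPKM, a plain prior, a replicate block and leaving out each library. Sequences are from RefSeq (GRCh38.p14), and gene positions and coding sequences from GENCODE release 29 (GRCh38).

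The members, the related lists and the tests were chosen with earlier results of these data known. Genes were named by a rule that takes all members, OXTR, up to 4 called genes of each list with the largest change, and the 5 genes of at least 5 FPKM closest to CDH1 and to CTNNB1 in profile. CDH2, CDH17, DSG3, DSC3, CTNND1, CBLL1, the repressors other than TCF3 and CTBP1, APC, AXIN1, GSK3B, KRT8 and KRT18 were named after their values were seen. A list of 12 symbols of mitochondrially encoded genes matched none in the files.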

Additional observations from a re-analysis of the deposited data

How the results depend on the processing

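CDH1, CDH3, DSG2, DSC2, DSP and PKP2 were lower and past the threshold in all 14 alternatives. The count of members called lower stayed at 6 throughout. Of the members, 3 were called higher as deposited, 0 after TMM scaling and 1 with equal library sums. The same settings gave 2211 and 2956 genes called higher among all tested genes, against 4869 as deposited, so that calls in the higher direction made up 70.5% of all calls as deposited, 43.9% after TMM scaling and 54.9% with equal library sums. JUP changed sign after TMM scaling, to -0.0398. The cadherin minus plaque difference of -1.50 was -1.29 with a pseudocount of 5, which compresses low values by construction. Leaving out 1 library at a time, that difference ranged from -1.53 to -1.46, members called changed from 8 to 9, members called higher from 2 to 3, and all genes called changed from 5812 to 6699. Same-numbered libraries of the 2 groups had deviations that correlated at 0.107, 0.00421 and 0.160, so the numbers were not taken as pairs, and not every library correlated best with its own number. With the number as a replicate block, 9 members and 7205 genes were called. Depth is unknown, so no limit from counting can be given.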

Other observations

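The genes whose profiles over the 6 libraries lay closest to that of CDH1, among 9015 other genes averaging 5 FPKM or more, were APP, GLG1, ANPEP, IGF2R and THBS1, at Euclidean distances of 0.0379 to 0.133 on the log2 scale. APP, which encodes the amyloid precursor protein, was at 93.58, 96.35 and 95.99 FPKM in siOXTR, against 362.18, 342.78 and 338.48 FPKM in siControl. Those closest to CTNNB1 were ESPL1, PYGB, ZFP64, CIZ1 and SPECC1L, at distances of 0.0338 to 0.0528. Of these ESPL1, the gene of separase, was at 12.41, 11.24 and 11.42 FPKM in siOXTR, against 10.12, 10.60 and 9.53 FPKM in siControl. With 2 groups of 3 libraries such profiles are set mostly by the difference between the groups.

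Genes next to CDH1 and CDH3 on chromosome 16 did not show a fall of that size. Within 250 kb of either gene, ZFP90 and TANGO6 were the other tested genes, at 6.04 ± 0.500 and 1.83 ± 0.0153 FPKM in siOXTR and at 6.64 ± 0.265 and 1.62 ± 0.101 FPKM in siControl (SD, n = 3 each). Neither passed the threshold as deposited (log2 fold changes -0.12 and 0.12, adjusted p = 0.154 and 0.198, limma), and after TMM scaling ZFP90 was lower (-0.23, adjusted p = 0.0189, limma). Within the same distance of DSG2 and DSC2 no other gene passed the filter on low values, although the cluster there holds the other desmoglein and desmocollin genes.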
